A study of Homo sapiens with 12 samples.

Results

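The 10 genes described here encode subunits of activator protein 1 (AP-1) or close partners of it: FOS, FOSB, FOSL1, FOSL2, JUN, JUNB, JUND, ATF3, BATF3 and MAFF. They were taken by name from a count table of 60623 genes. All 10 were found, and all 10 were among the 23684 genes that passed a filter on low counts. The study overexpressed HKDC1, a member of the hexokinase family, in 2 human colon cancer cell lines to look for expression changes linked to proliferation. SW480 was derived from a colon adenocarcinoma, and COLO320DM from a colon tumour with neuroendocrine features that carries amplified MYC on double minute chromosomes. Each line was transfected for 24 h with 10 µg of plasmid and a lipid reagent. The plasmid was pCMV6-HKDC1, which drives HKDC1 from a viral promoter, or the empty pCMV6-Entry. There were 3 libraries in each of the 4 groups: SW480 with HKDC1, SW480 with Entry, COLO320DM with HKDC1 and COLO320DM with Entry. All 12 libraries are therefore from transfected cells. Nothing in the labels tells separate cultures from repeat samples of a culture, so p-values here rest on the spread between these libraries, which may be technical.

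AP-1 is a dimer of basic leucine zipper (bZIP) proteins. FOS family proteins cannot pair with themselves and bind DNA as dimers with a JUN family protein, whereas JUN proteins can also pair with each other. The dimers bind the sequence TGACTCA and, with ATF family partners, the cyclic AMP response element TGACGTCA. Several of the genes are immediate early genes, transcribed within minutes of growth factor, serum or stress signals through MAP kinases, and in epithelial cancers AP-1 is known for its part in proliferation, migration and matrix remodelling.

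The promoters of FOS and the JUN genes are shown because all of these genes shifted together between replicate libraries of SW480 (given further on), although the line difference was far larger for JUNB than for JUN. The sequences are RefSeq's on GRCh38.p14, from 250 bases before the annotated start up to the start, written in the direction of transcription. Capitals mark the core TGACG of the cyclic AMP response element on either strand, alone or within TGACGTCA, and the related element TGACATCA.
FOS promoter (chr14:75278578-75278827, plus strand): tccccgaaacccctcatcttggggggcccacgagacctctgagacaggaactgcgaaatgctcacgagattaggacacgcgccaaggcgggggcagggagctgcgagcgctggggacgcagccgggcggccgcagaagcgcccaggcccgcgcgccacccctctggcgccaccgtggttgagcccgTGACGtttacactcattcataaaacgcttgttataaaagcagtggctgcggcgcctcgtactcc
JUN promoter (chr1:58784048-58784297, minus strand): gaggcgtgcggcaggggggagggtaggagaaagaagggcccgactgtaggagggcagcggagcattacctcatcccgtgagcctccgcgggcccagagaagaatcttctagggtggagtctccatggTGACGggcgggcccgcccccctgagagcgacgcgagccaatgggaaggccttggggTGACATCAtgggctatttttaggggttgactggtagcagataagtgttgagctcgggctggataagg
JUNB promoter (chr19:12791236-12791485, plus strand): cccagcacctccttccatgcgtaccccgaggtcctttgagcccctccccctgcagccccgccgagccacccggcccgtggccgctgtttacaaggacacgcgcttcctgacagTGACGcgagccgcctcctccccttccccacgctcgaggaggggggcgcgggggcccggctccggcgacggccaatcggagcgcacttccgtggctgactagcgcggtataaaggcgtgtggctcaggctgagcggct
JUND promoter (chr19:18281623-18281872, minus strand): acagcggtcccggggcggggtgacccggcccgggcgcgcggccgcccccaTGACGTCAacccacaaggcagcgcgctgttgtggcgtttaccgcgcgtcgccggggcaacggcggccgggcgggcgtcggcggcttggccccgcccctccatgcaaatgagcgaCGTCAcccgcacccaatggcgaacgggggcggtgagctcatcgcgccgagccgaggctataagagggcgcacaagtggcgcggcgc

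RefSeq promoters were matched for 8 of the 10 genes, with 10 starts in all. The core TGACG, or its reverse complement CGTCA, lay in 7 of the 10 starts, at FOS, FOSB, FOSL2, JUN, JUNB, JUND and 1 start of MAFF. It was present in 21.2% of the 35116 promoters of the same length. In FOS it lay 64 to 60 bases before the start, in JUN at 123 to 119 bases and in JUNB at 137 to 133 bases. The whole palindrome TGACGTCA occurred in JUND, beginning 200 bases before the start, and in MAFF, beginning 54 bases before it, against 1.65% of all promoters. TGACATCA occurred in JUN, beginning 67 bases before the start, and in 1 start of ATF3, beginning 123 bases before it, against 2.37% of all promoters. TGACTCA was in none of the 10 windows and in 4.2% of all promoters, with both strands searched for each motif. The CArG box, a run of A and T between CC and GG, was in 0 of the 10 windows and 1.16% of all promoters. TATAA was in 5 of the 10 windows and 18.9% of all promoters. The core overlaps the palindrome wherever the palindrome occurs. These are matches of letters in this window only, and no binding was measured. Of the genes with the core, FOS, JUN, JUNB, JUND and MAFF passed the test of replicate number in SW480 (given further on). FOSB and FOSL2 had the core and did not pass it, and ATF3 passed without the core. A link between site and shift was not tested.

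Library totals ran from 33790733 to 45451279 counts. Levels are given as counts-per-million values (CPM). HKDC1 itself averaged 13372 ± 1054 CPM in SW480 with HKDC1 and 35.7 ± 2.34 CPM in SW480 with Entry. It averaged 8466 ± 1650 CPM in COLO320DM with HKDC1 and 0.0157 ± 0.0136 CPM in COLO320DM with Entry (SD, n = 3 each). Among 10 colon epithelial markers, 9 averaged at least 1 CPM in SW480 and 6 did in COLO320DM, where CDX1 was at 0. EPCAM, an epithelial surface protein, averaged 517 CPM in SW480 and 1.81 CPM in COLO320DM with Entry. The neuroendocrine list had 2 of 5 markers at 1 CPM or more in each line, and its summed level was 58.1 to 79.9 CPM in SW480 and 26.1 to 36.5 CPM in COLO320DM. Of 4 leukocyte markers, 3 were at 1 CPM or more in COLO320DM, and their summed level there was 34.5 to 44.6 CPM, against 6.17 to 12.3 CPM in SW480. Endothelial markers were below 1 CPM in both lines. Of 5 fibroblast markers, 2 were at 1 CPM or more in each line. The summed fibroblast level was 17.5 to 21.9 CPM in SW480 and 34.5 to 57.7 CPM in COLO320DM. The part of these differences in the line comparisons below was not tested. In both lines replicate 1 stood apart from replicates 2 and 3. The chi-square per degree of freedom between libraries of a group was 22.4 to 75.1 for pairs that included replicate 1 and 3.03 to 9.29 for replicates 2 and 3. No 2 libraries of a group agreed within sampling noise.

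SW480 carried far more FOS family transcript than COLO320DM, and about the same amount of JUN. With either plasmid, 9 of the 10 genes were higher in SW480 by edgeR's quasi-likelihood test with Benjamini-Hochberg adjusted p below 0.05. That compares with 37.4% of all tested genes higher in SW480 with HKDC1 and 37.3% with Entry. The tests called 70.8% and 71.6% of all genes in either direction. At least 2-fold higher were 8 of the 10 genes with HKDC1 and 7 with Entry, against 23% and 23.3% of all genes. The libraries of SW480 all lay above those of COLO320DM for 9 genes with HKDC1 and 8 with Entry, which 39.2% and 38% of all genes showed. The median log2 difference of the 10 genes was 2.38 with HKDC1 and 2.64 with Entry, against 0.05 and 0.04 over all tested genes. These counts and medians include BATF3, which passed the count filter only through SW480, so its difference was built into its being tested. In bulk RNA, fewer cells expressing a gene and less RNA per cell cannot be told apart.

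**Figure D1:**
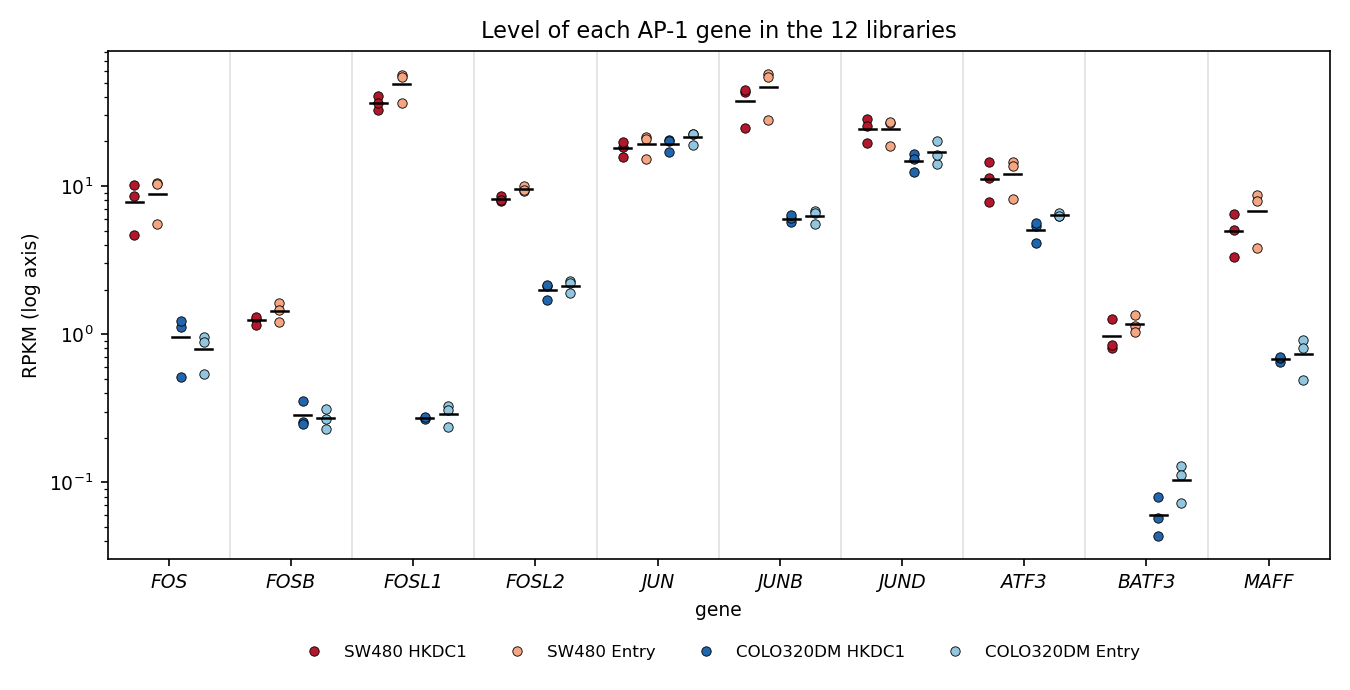
Level of each gene as CPM per kilobase of exon (RPKM, log axis) in each of the 12 libraries, with groups SW480 HKDC1, SW480 Entry, COLO320DM HKDC1 and COLO320DM Entry from left to right, a point for each library and a black bar at the group mean of 3. FOSL1 averaged 36.4 and 49.1 RPKM in SW480 with HKDC1 and Entry and 0.272 and 0.291 RPKM in COLO320DM, while the 4 groups of JUN overlap.

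FOSL1 encodes FRA1, a FOS family subunit that is stable and often high in invasive carcinoma cells. The gene (ENSG00000175592) lies at chr11:65892049-65900573 on the minus strand of GRCh38. It had 61.1, 76.7 and 68.3 CPM in SW480 with HKDC1 and 68.8, 106 and 103 CPM in SW480 with Entry. In COLO320DM it had 0.512, 0.504 and 0.521 CPM with HKDC1 and 0.448, 0.620 and 0.579 CPM with Entry, from 18 to 26 counts per library. The lowest SW480 library was thus far above every COLO320DM library. The log2 difference between SW480 and COLO320DM was 7.06 (SE 0.22) with HKDC1 and 7.39 (SE 0.21) with Entry, with adjusted p of 1.06e-11 and 5.77e-12.

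FOS (ENSG00000170345, chr14:75278826-75282230, plus strand) encodes c-FOS, the classic short-lived partner of JUN. Its 3 libraries of SW480 with HKDC1 had 14.9, 32.3 and 27.4 CPM, and those of SW480 with Entry had 17.6, 33.6 and 33.1 CPM. COLO320DM had 1.63, 3.56 and 3.91 CPM with HKDC1 and 1.72, 3.03 and 2.80 CPM with Entry. The lines did not overlap, and replicate 1 was the lowest library in all 4 groups. FOS was 8.25-fold higher in SW480 with HKDC1 (log2 3.05, SE 0.38, adjusted p = 8.52e-06) and 11.2-fold higher with Entry (log2 3.48, SE 0.38, adjusted p = 2.57e-06).

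FOSB (ENSG00000125740, chr19:45467995-45475179, plus strand), whose product can also occur as a truncated form lacking the transactivation domain, was low in both lines. It had 7.02, 6.41 and 7.22 CPM in SW480 with HKDC1 and 9.004, 8.04 and 6.71 CPM in SW480 with Entry, and 1.27 to 1.97 CPM over the 6 COLO320DM libraries. FOSL2 (ENSG00000075426, chr2:28392448-28417317, plus strand), which encodes FRA2, had 61.1, 57.0 and 58.0 CPM in SW480 with HKDC1 and 66.0, 72.2 and 67.7 CPM in SW480 with Entry, and 12.2 to 16.3 CPM in COLO320DM. Neither gene overlapped between the lines. With HKDC1, FOSB was 4.35-fold and FOSL2 4.13-fold higher in SW480, with adjusted p of 3.47e-07 and 1.7e-09. With Entry, FOSB was 5.28-fold and FOSL2 4.51-fold higher, with adjusted p of 9.24e-08 and 8.82e-10.

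JUN (ENSG00000177606, chr1:58780791-58784047, minus strand) encodes c-JUN, the main partner of FOS and a target of the JNK kinases. It had 51.2, 60.04 and 64.4 CPM in SW480 with HKDC1 and 49.95, 69.4 and 67.3 CPM in SW480 with Entry. COLO320DM had 55.2, 66.8 and 65.6 CPM with HKDC1 and 61.7, 73.4 and 72.7 CPM with Entry. The lines overlapped with either plasmid. The log2 difference was -0.09 (SE 0.14, adjusted p = 0.549) with HKDC1 and -0.15 (SE 0.13, adjusted p = 0.319) with Entry. With the replicate number as a block within each line (described with the plasmid comparison), the Entry difference of -0.16 passed at adjusted p = 0.0136, in a fit that called 81.6% of all genes.

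JUNB (ENSG00000171223, chr19:12791486-12793315, plus strand) encodes a JUN protein that activates transcription less strongly than c-JUN and can restrain proliferation. Its libraries had 45.3, 79.1 and 81.7 CPM in SW480 with HKDC1 and 51.0, 105 and 99.8 CPM in SW480 with Entry, against 10.1 to 12.4 CPM in all 6 libraries of COLO320DM. JUNB was 6.22-fold higher in SW480 with HKDC1 and 7.41-fold higher with Entry, with adjusted p of 1.18e-06 and 4.76e-07. The annotation places HOOK2 on the opposite strand with 259 shared exon bases. HOOK2 averaged 50.2 CPM of the library total with HKDC1 and 51.7 CPM with Entry in SW480, against 15.2 and 15.03 CPM in COLO320DM. The strand setting of the counting is not given in the sources used here, so reads from the shared bases cannot be told apart.

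JUND (ENSG00000130522, chr19:18279694-18281622, minus strand), the JUN protein usually present in resting cells, differed less. It had 37.5, 54.4 and 49.1 CPM in SW480 with HKDC1, against 24.0, 31.7 and 29.3 CPM in COLO320DM with HKDC1, and these did not overlap. With Entry it had 35.9, 51.6 and 52.2 CPM in SW480, against 27.3, 31.4 and 38.9 CPM in COLO320DM, and these did. The log2 difference was 0.73 (SE 0.18, adjusted p = 0.00284) with HKDC1 and 0.52 (SE 0.18, adjusted p = 0.0207) with Entry. The Entry call was lost without any 1 of 4 libraries. The adjusted p was 0.0761 without SW480 Entry replicate 2 and 0.0848 without SW480 Entry replicate 3, and 0.0888 and 0.0603 without COLO320DM Entry replicates 1 and 2.

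**Figure D2:**
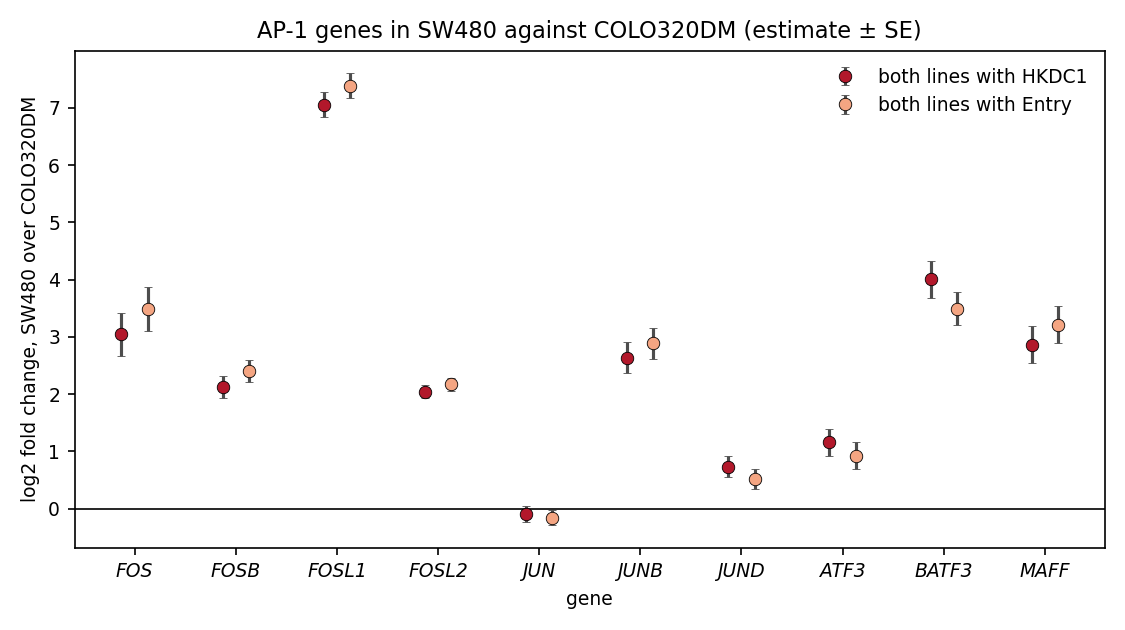
Log2 fold change of SW480 over COLO320DM for each gene (vertical axis) from edgeR, with both lines carrying HKDC1 (left point of each pair) or Entry (right point), bars being 1 standard error. FOSL1 reached 7.06 and 7.39, and JUN alone lay below 0, at -0.09 and -0.15.

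ATF3 (ENSG00000162772, chr1:212565334-212620777, plus strand), a stress-induced factor that pairs with JUN proteins, had 31.3, 58.8 and 46.0 CPM in SW480 with HKDC1 and 32.8, 58.5 and 55.3 CPM in SW480 with Entry. COLO320DM had 16.5, 21.8 and 22.8 CPM with HKDC1 and 25.4, 26.5 and 25.3 CPM with Entry. The lines did not overlap, with folds of 2.23 and 1.90 higher in SW480 and adjusted p of 0.000592 and 0.00277 for HKDC1 and Entry. MAFF (ENSG00000185022, chr22:38200767-38216507, plus strand), a small MAF protein that lacks a transactivation domain, had 18.6, 36.2 and 28.3 CPM in SW480 with HKDC1 and 21.5, 48.7 and 44.7 CPM in SW480 with Entry, against 2.73 to 5.12 CPM in COLO320DM. It was 7.28-fold higher in SW480 with HKDC1 and 9.30-fold higher with Entry, with adjusted p of 3.91e-06 and 1.21e-06. MAFF shares 326 exon bases with PLA2G6 on the opposite strand. PLA2G6 was lower in SW480, at 7.29 and 8.62 CPM of the library total with HKDC1 and Entry, against 21.9 and 21.8 CPM in COLO320DM.

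BATF3 (ENSG00000123685, chr1:212686417-212699840, minus strand), a JUN partner best known from dendritic cells, was the scarcest of the 10. It had 115, 85 and 76 counts in SW480 with HKDC1, 113, 98 and 158 counts in SW480 with Entry, 6, 4 and 7 counts in COLO320DM with HKDC1, and 14, 12 and 8 counts in COLO320DM with Entry. It passed the count filter only through SW480, so a difference between the lines was built into its being tested. BATF3 was 16.1-fold higher in SW480 with HKDC1 and 11.2-fold higher with Entry, with adjusted p of 1.19e-07 and 1.54e-07.

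Levels of different genes were compared per kilobase of exon, as RPKM. In SW480 with HKDC1 the order was JUNB (37.5 RPKM), FOSL1 (36.4), JUND (24.4), JUN (17.98), ATF3 (11.2), FOSL2 (8.19), FOS (7.80), MAFF (4.94), FOSB (1.24) and BATF3 (0.976 RPKM). In SW480 with Entry FOSL1 came first at 49.1 RPKM and JUNB next at 46.5 RPKM, with the rest in the same order. In both SW480 groups the libraries of JUNB and FOSL1 overlapped, as did those of JUND and JUN, of ATF3, FOSL2, FOS and MAFF in succession, and of FOSB and BATF3. In COLO320DM with HKDC1 the order was JUN (19.2 RPKM), JUND (14.7), JUNB (6.03), ATF3 (5.04), FOSL2 (1.98), FOS (0.952), MAFF (0.679), FOSB (0.285), FOSL1 (0.272) and BATF3 (0.0598 RPKM), and the libraries overlapped between FOS and MAFF and between FOSB and FOSL1. In COLO320DM with Entry JUN averaged 21.3 RPKM and JUND 16.9 RPKM and their libraries overlapped, and so did ATF3 (6.37 RPKM) and JUNB (6.28 RPKM), FOS (0.790 RPKM) and MAFF (0.734 RPKM), and FOSL1 (0.291 RPKM) and FOSB (0.269 RPKM). These orders depended on the length used. With the length of the longest annotated transcript in place of all exons, ATF3 was at 21.6 and 23.2 RPKM in SW480 with HKDC1 and Entry, above JUN, and at 9.68 and 12.2 RPKM in COLO320DM, above JUNB. FOSL1 (41.2 RPKM) then came before JUNB (37.7 RPKM) in SW480 with HKDC1 as well. FOSL2, FOS and MAFF changed places among themselves in SW480, and so did MAFF with FOS and FOSB with FOSL1 in COLO320DM with Entry.

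The make-up of the pool therefore differed by line. The 4 FOS genes made up 35.9 ± 2.999% of the summed RPKM of the 10 genes in SW480 with HKDC1 and 38.9 ± 2.13% in SW480 with Entry. They made up 7.06 ± 0.63% in COLO320DM with HKDC1 and 6.30 ± 0.37% in COLO320DM with Entry (SD, n = 3 each). The 3 JUN genes held 52.8 ± 2.71% and 49.99 ± 1.39% in SW480 with HKDC1 and Entry, and 81.2 ± 1.16% and 80.5 ± 1.18% in COLO320DM. The summed level of the 10 genes was 150.7 ± 27.8 RPKM in SW480 with HKDC1 and 179 ± 44.4 RPKM with Entry, and 49.2 ± 5.69 and 55.1 ± 5.98 RPKM in COLO320DM with HKDC1 and Entry. With longest-transcript lengths the FOS share was 36.7% and 39.5% in SW480 and 7.80% and 6.79% in COLO320DM for HKDC1 and Entry. The JUN share was then 45.6% and 43.1% in SW480 and 72.1% and 70.8% in COLO320DM. ATF3, BATF3 and MAFF together moved most, to 17.7% and 17.3% in SW480 and 20.1% and 22.4% in COLO320DM, against 11.3% and 11.1% in SW480 and 11.7% and 13.2% in COLO320DM with all exons.

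**Figure D3:**
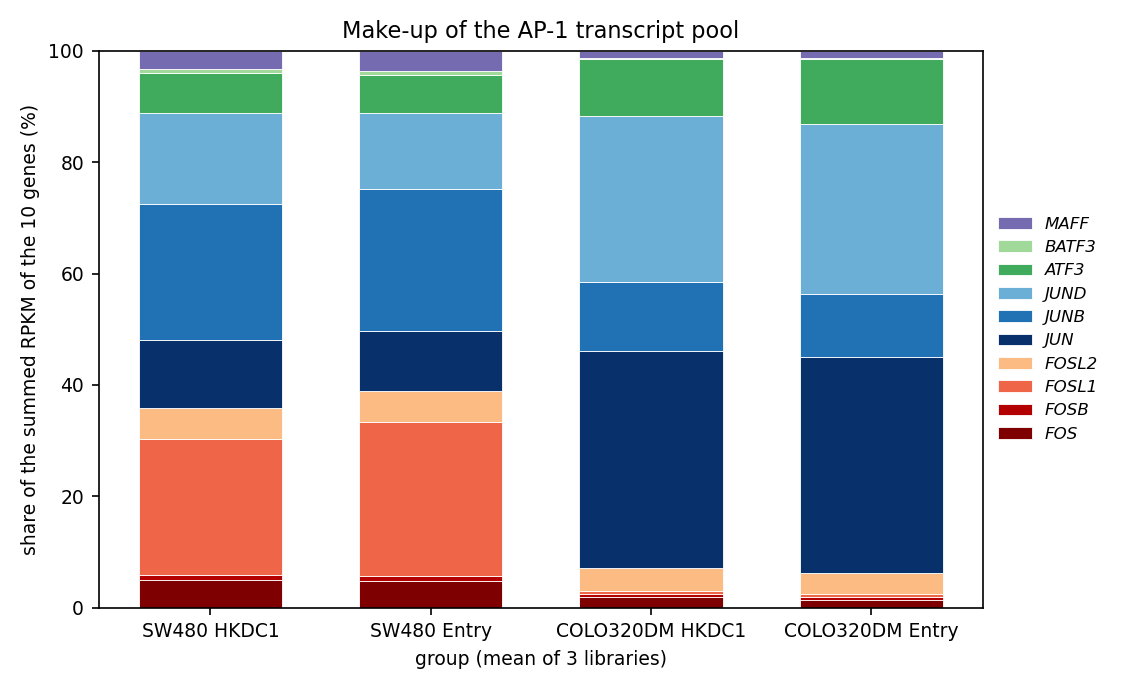
Share of each gene in the summed RPKM of the 10 genes (vertical axis, percent, mean of 3 libraries) in SW480 with HKDC1, SW480 with Entry, COLO320DM with HKDC1 and COLO320DM with Entry. The 4 FOS genes, at the bottom of each bar, make up 35.9% and 38.9% in SW480 and 7.06% and 6.30% in COLO320DM.

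The question the design addresses is what HKDC1 changes. In COLO320DM none of the 10 genes passed with HKDC1 against Entry (edgeR quasi-likelihood test, Benjamini-Hochberg adjusted p below 0.05), where 0.00844% of all tested genes did. That share was 2 genes, and 0 passed with HKDC1 and its antisense gene left out. No member had an unadjusted p below 0.05, against 312 of the 23684 tested genes. DESeq2 and limma-voom also called 0 members. The log2 change was negative for 8 of the 10, with a median of -0.11 and a range of -0.79 to 0.26. The lowest estimate was that of BATF3, which had only 4 to 14 counts per library (adjusted p = 1). ATF3 was the one gene whose HKDC1 libraries all lay below the Entry libraries, at 20.4 ± 3.35 CPM with HKDC1 and 25.7 ± 0.646 CPM with Entry (SD, n = 3 each). Libraries that do not overlap in this direction were found for 4.22% of all genes, and its log2 change of -0.34 (SE 0.23) had an adjusted p of 1. JUN, the most abundant of the 10 per length in this line, had an estimate of -0.15 (SE 0.13, adjusted p = 1).

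In SW480 9 of the 10 estimates were negative, with a median of -0.21 against 0 over all tested genes. None passed (0.0127% of all genes did), and 2 had an unadjusted p below 0.05: FOSL1 at 0.0108 and FOSL2 at 0.0451. Of the 23684 tested genes, 356 had an unadjusted p below 0.05 in the same test. Over all genes 3 passed, and 1 did with HKDC1 and its antisense gene left out. DESeq2 and limma-voom called 0 members as well. FOSL1 averaged 68.7 ± 7.79 CPM with HKDC1 and 92.6 ± 20.7 CPM with Entry, FOSL2 58.7 ± 2.15 and 68.7 ± 3.19 CPM, JUNB 68.7 ± 20.3 and 85.2 ± 29.7 CPM, and MAFF 27.7 ± 8.79 and 38.3 ± 14.7 CPM (SD, n = 3 each). FOSL2 was the one gene whose HKDC1 libraries all lay below the Entry libraries, which 2.28% of all genes did.

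With the replicate number as a block within each line, 3 of the 10 genes fell with HKDC1 in SW480. Same-numbered libraries deviated together, but mainly through replicate 1: libraries numbered 2 and 3 were as alike across numbers as within them, so how these are paired rests on the labels' numbers alone. Of all tested genes, 0.595% fell and 0.76% changed in either direction under the same fit. FOSL1 changed by -0.41 (SE 0.07, adjusted p = 0.000762), MAFF by -0.44 (SE 0.09, adjusted p = 0.0106) and JUNB by -0.29 (SE 0.06, adjusted p = 0.0181). Each was lower in 3 of 3 pairs, although the libraries of the plasmid groups overlapped. In pairs 1, 2 and 3 the log2 ratio of FOSL1 was -0.17, -0.47 and -0.59, that of MAFF -0.21, -0.43 and -0.65, and that of JUNB -0.17, -0.40 and -0.29. FOS and FOSL2 were also lower in all 3 pairs, at -0.19 (adjusted p = 0.413) and -0.23 (adjusted p = 0.104). The share of all genes that were lower in all 3 pairs was not counted. JUND was the one gene with a positive estimate, 0.02 (SE 0.07, adjusted p = 0.984), JUN was at -0.08 (SE 0.06, adjusted p = 0.746), and ATF3 at -0.11 (SE 0.07, adjusted p = 0.69). FOSB and BATF3 were at -0.19 and -0.29, with adjusted p of 0.634 and 0.658.

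The 3 calls depended on which pairs were used, as did the calls over all genes. Without pair 1, FOSL1, MAFF, JUNB and also FOSL2 passed, with adjusted p of 4.96e-06, 0.000163, 0.00344 and 0.036, where 2.23% of all genes did. Without pair 2 none passed, the adjusted p of FOSL1, MAFF and JUNB being 0.12, 0.336 and 0.732, where 0.0541% of all genes passed. Without pair 3 none passed either, at 0.065, 0.231 and 0.109, where 0.204% of all genes did. In COLO320DM the same block gave 0 calls among the 10 genes, with 0.076% of all genes called. DESeq2 and limma-voom with the block also called 0 of the 10. By edgeR 3 members had an unadjusted p below 0.05, against 1290 of the 23684 tested genes. ATF3 reached -0.35 (SE 0.08) at an adjusted p of 0.104.

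**Figure D4:**
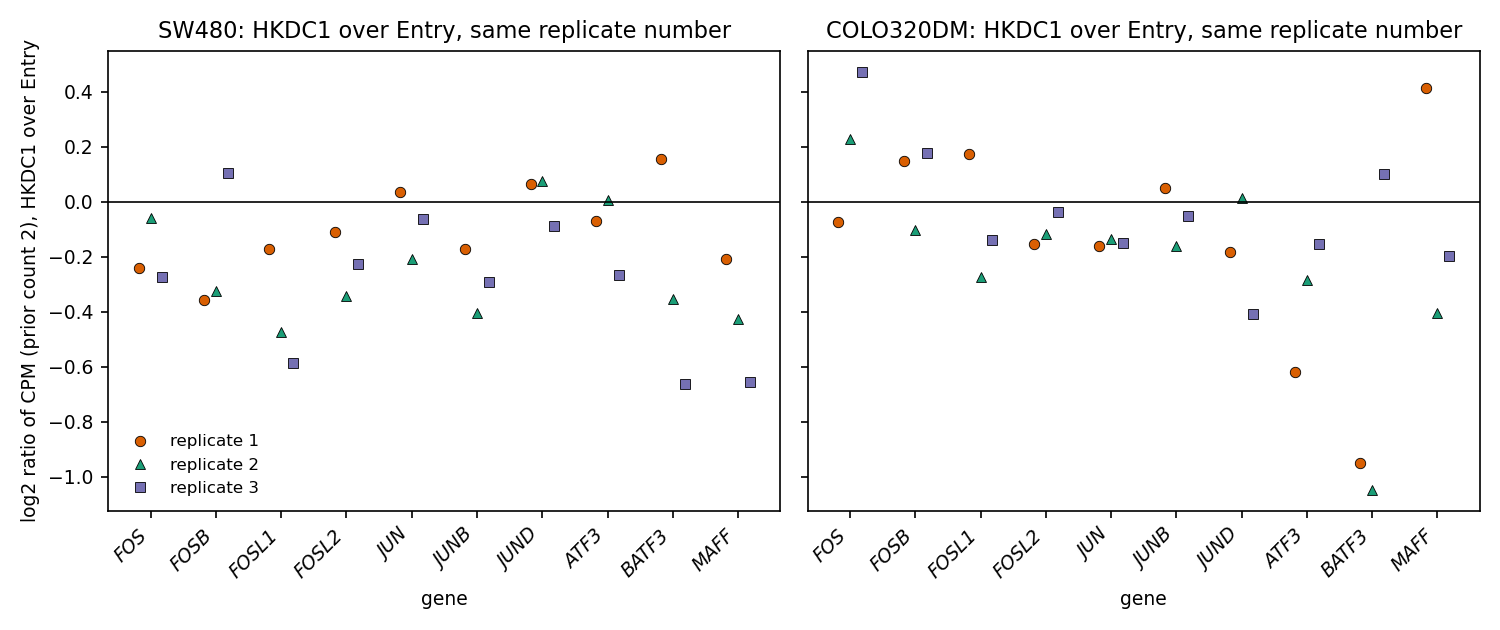
Log2 ratio of CPM of HKDC1 over Entry for libraries of the same replicate number (vertical axis), for each gene in SW480 (left panel) and COLO320DM (right panel), with a symbol for each of the 3 pairs. In SW480, FOS, FOSL1, FOSL2, JUNB and MAFF lie below 0 in every pair, and in COLO320DM FOSL2, JUN and ATF3 do.

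Whether HKDC1 acted differently in the lines was tested as the difference between the plasmid effects, SW480 minus COLO320DM. No member passed in the fit without the block (0.00844% of all genes did) or with it (0.0422% of all genes did). No member had an unadjusted p below 0.05 without the block, against 379 of the 23684 tested genes. With the block 5 members did, against 1802 of the 23684 tested genes. Without the block, 0 of all genes passed once HKDC1 and its antisense gene were left out. DESeq2 and limma-voom called 0 members in either fit. With the block, the difference was -0.32 for FOSL1 (SE 0.27, adjusted p = 0.82), -0.35 for MAFF (SE 0.16, adjusted p = 0.619) and -0.24 for JUNB (SE 0.10, adjusted p = 0.594). The effects were thus not shown to differ between the lines.

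Within SW480 most of the 10 genes were lowest in replicate 1 with both plasmids. Replicate number was tested in the fit with the block, and 7 of the 10 genes passed, where 38.5% of all tested genes did. They were FOS, FOSL1, JUN, JUNB, JUND, ATF3 and MAFF, with adjusted p of 3.31e-10, 4.43e-05, 0.000103, 2.43e-12, 8.01e-06, 2.7e-09 and 5.63e-09. These 7 were also the genes whose replicate 1 was the lowest library with both plasmids, which 32.5% of all genes showed. Relative to replicates 2 and 3, replicate 1 was at 0.564-fold for JUNB, 0.502-fold for FOS, 0.582-fold for MAFF and 0.602-fold for ATF3 with HKDC1. With Entry it was at 0.499-fold for JUNB, 0.529-fold for FOS, 0.462-fold for MAFF and 0.577-fold for ATF3. FOSB, FOSL2 and BATF3 did not pass, with adjusted p of 0.505, 0.949 and 0.35. None of the 10 passed between replicates 2 and 3 alone, where 0.0248% of all genes did. The replicate 1 libraries of SW480 held 38966920 and 41926575 counts with HKDC1 and Entry, within the range of the others, and had the lowest TMM scaling factors, 0.903 and 0.920. The part of either in the shift was not tested.

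In COLO320DM 4 genes passed by replicate number, against 16% of all tested genes: FOS, FOSL2, JUN and JUND, with adjusted p of 4.98e-05, 0.0444, 0.017 and 0.00346. FOS had the largest shift, with replicate 1 at 0.446-fold of replicates 2 and 3 with HKDC1 and 0.598-fold with Entry. Replicate 1 was the lowest library with both plasmids for 6 of the 10 genes, and for 25.8% of all genes. None of the 10 passed without replicate 1, and 0% of all genes did.

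**Figure D5:**
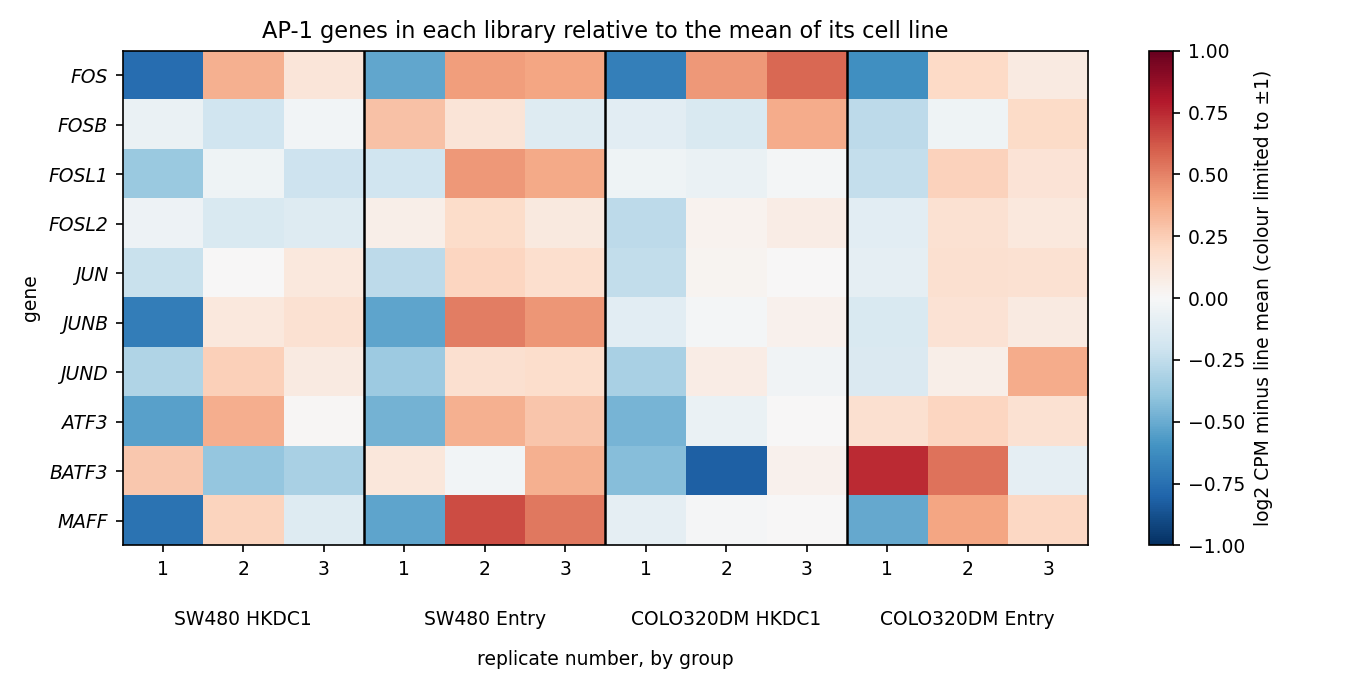
Log2 CPM of each gene (rows) in each library (columns, by group and replicate number), relative to the mean of the 6 libraries of its cell line, with red above and blue below the mean. In SW480, replicate 1 is blue with both plasmids for FOS, FOSL1, JUN, JUNB, JUND, ATF3 and MAFF. It is not blue for FOSB or FOSL2 with Entry, nor for BATF3 with either plasmid.

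The genes whose pattern was most like that of each member were found by Pearson's r over the 12 libraries after subtraction of the line mean. These are descriptions over libraries that share the shift of replicate 1. FOS was closest to EGR1 (0.98), a serum-induced zinc finger factor, and HES1 (0.97), a Notch target, and then to RNF214 (0.97). JUNB was closest to MEF2B, TIMM44 and MARS1 (0.99 each), JUN to DUSP8 (0.98), a phosphatase that acts on MAP kinases, and SEMA3B-AS1 (0.98), and ATF3 to RNF19A (0.99), CSGALNACT2 (0.97) and LRRC37A3 (0.96). FOSL1 was closest to RHBDD1 (0.97) and then to PER2 (0.96), a clock gene. For JUND the named genes were COQ5 (0.98) and HOXB9 (0.97), for MAFF DLX2 (0.98) and ABHD12 (0.97), and for FOSL2 JAG1 (0.92), a Notch ligand, and KDM5B (0.92). FOSB was closest to SNORD34 (0.89), a small nucleolar RNA, then USF2 (0.83), and BATF3 to CCDC174 (0.88). Genes without a symbol, which took some of the 3 places, are not named.

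Genes around AP-1 were counted in the same fits. Of 19 other bZIP partners, all tested, 11 were higher and 5 lower in SW480 with HKDC1, and 12 were higher and 4 lower with Entry. Some of them, such as BATF, passed the count filter only through SW480. Among all tested genes, 37.4% and 37.3% were higher, and 70.8% and 71.6% were called in either direction. The median log2 difference was 0.73 and 0.75, against 0.05 and 0.04 over all genes. MAFK, a small MAF protein like MAFF, averaged 46.9 ± 1.35 CPM in SW480 and 12.2 ± 0.498 CPM in COLO320DM with HKDC1, and 54.0 ± 6.47 and 11.4 ± 0.304 CPM with Entry (adjusted p = 1.33e-09 and 3.28e-10). BATF, a JUN partner of lymphocytes, averaged 2.96 CPM in SW480 and was listed at 0 in every library of COLO320DM with Entry. NFE2L3 with Entry and NFE2L2, the oxidative stress factor NRF2, with HKDC1 were also among the most clearly higher, by 1.27 and 1.55 on the log2 scale. BACH2, a repressor that binds with small MAF proteins, was lower in SW480, at 2.42 ± 0.768 CPM against 36.1 ± 1.89 CPM in COLO320DM with HKDC1, and at 3.21 ± 1.45 against 37.5 ± 3.99 CPM with Entry (adjusted p = 8.5e-08 and 1.56e-07). ATF7 and ATF2, JUN partners regulated by stress kinases, were lower, with log2 differences of -1.27 and -0.49 with HKDC1 and of -1.21 and -0.57 with Entry.

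The 20 kinases and factors upstream of AP-1 showed no common direction between lines. In SW480, 7 were higher and 4 lower with HKDC1 (median -0.13), and 7 higher and 7 lower with Entry (median -0.02), so that the number higher was near the 37.4% and 37.3% of all genes. MAP2K1, which encodes MEK1, averaged 106 ± 4.89 CPM in SW480 and 50.6 ± 0.731 CPM in COLO320DM with HKDC1. MAPK8, which encodes JNK1, averaged 44.2 ± 4.51 and 19.9 ± 0.472 CPM, and RPS6KA5, which encodes the kinase MSK1, 22.4 ± 1.05 and 8.63 ± 0.481 CPM. ELK3, a partner of serum response factor, was lower, at 22.5 ± 2.22 CPM in SW480 and 59.0 ± 3.51 CPM in COLO320DM with HKDC1, and so were MAPK10, which encodes JNK3, and MAPK3, which encodes ERK1, with log2 differences of -2.92 and -0.94 (SD, n = 3 each, adjusted p of the 6 genes between 3.28e-08 and 5.61e-06).

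Of 25 textbook AP-1 target genes 18 passed the count filter, some only through SW480, and nearly all of these were higher in SW480. With HKDC1, 15 were higher and 1 lower, and with Entry 17 were higher and 1 lower, with a median log2 difference of 4.09 and 4.21. Of all tested genes, 37.4% and 37.3% were higher. MMP1, MMP3, MMP9, MMP10, MMP13, IL6 and IVL, not among the 18, averaged at most 0.108 CPM in every group. TIMP1, an inhibitor of matrix metalloproteinases, averaged 36.7 ± 1.13 CPM in SW480 and 1.83 ± 0.0691 CPM in COLO320DM with HKDC1, and 41.5 ± 6.70 and 1.97 ± 0.0337 CPM with Entry. CCND1, which encodes cyclin D1, averaged 258 ± 57.0 and 17.7 ± 0.0258 CPM with HKDC1. LAMB3, which encodes a laminin chain, averaged 208 ± 78.9 CPM in SW480 with Entry, against 0.0469 ± 0.0229 CPM in COLO320DM with Entry. VIM, which encodes vimentin, was the one lower gene, at 38.3 ± 10.1 CPM in SW480 and 765 ± 79.6 CPM in COLO320DM with HKDC1, and 44.9 ± 10.68 and 745 ± 129 CPM with Entry (SD, n = 3 each). Of the 10 other immediate early genes, 7 were higher and 3 lower in SW480 with HKDC1, and 7 higher and 2 lower with Entry. EGR2 and EGR3 averaged at most 0.0729 CPM in either COLO320DM group and passed the count filter only through SW480. Their difference between the lines was thus built into their being tested. The tests called 70.8% and 71.6% of all genes in either direction, with 37.4% and 37.3% higher. IER3, a survival gene, was higher by 6.42 and 7.05, ZFP36, which encodes an RNA decay factor, by 4.72 and 5.10, and EGR3 by 7.17 and 8.07, for HKDC1 and Entry on the log2 scale. MCL1, a BCL2 family survival gene, was lower, at -2.51 and -2.46, and NR4A1, a nuclear receptor, at -1.91 and -1.98. KLF6, a zinc finger factor, was lower, at -0.32, with HKDC1 (adjusted p = 0.033).

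Between the plasmids no gene of the 4 lists passed without the block in either line, and none passed with it in COLO320DM. In SW480 with the block, 4 of 18 tested target genes, 3 of 10 other immediate early genes, 3 of 19 bZIP partners and 0 of 20 upstream genes passed, all lower with HKDC1, where 0.595% of all genes were. Among target genes 16 of 18 estimates were negative, with a median of -0.35. LAMB3 fell by 0.42 (SE 0.06, adjusted p = 0.000205) and PLAU, which encodes the urokinase protease, by 0.70 (SE 0.11, adjusted p = 0.000379) on the log2 scale. HBEGF, an EGF receptor ligand, fell by 0.69 (adjusted p = 0.0163) and lies outside the naming rule, so its choice followed its values. The libraries of PLAU had 2.08, 14.7 and 11.2 CPM with HKDC1 and 2.70, 22.1 and 21.6 CPM with Entry, so that replicate 1 again lay far below the others in both groups. EGR1, IER3 and EGR3 fell by 0.34, 0.32 and 0.50, with adjusted p of 0.00279, 0.00284 and 0.0196. CREB5, DDIT3 and ATF5 fell by 0.58, 0.27 and 0.30, with adjusted p of 0.00501, 0.0291 and 0.0481. Replicate number passed for 15 of the 18 target genes and 7 of the 10 immediate early genes in SW480, against 38.5% of all genes, for 14 of the 19 bZIP partners and for 7 of the 20 upstream genes. In COLO320DM, where 16% of all genes passed, it did so for 2 of the 18 target genes, 5 of the 10 immediate early genes, 7 of the 19 bZIP partners and 9 of the 20 upstream genes. In SW480 the smallest p among the targets were those of PLAU, VEGFA and LAMB3.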

How the data were processed

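Poly-A RNA libraries of 12 samples of transfected cells were read from 1 table of counts. The authors deposited whole-number counts per Ensembl gene with the exon length of each gene. Per the submitters' processing notes, the build was GRCh38 and the tools HISAT2 2.1.0 and limma; the counting program, its strand setting and the annotation release are not given in the sources used here. Counting without a strand setting could mix reads of overlapping genes.

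Groups came from the sample titles. The 10 genes and the context lists were chosen with earlier results of these data known. Genes were kept by filterByExpr in edgeR 4.0.16 (minimum count 10, minimum total 15), scaled by TMM and fitted with 4 group means (8 residual degrees of freedom) by the quasi-likelihood test in R 4.3.3, with Benjamini-Hochberg adjustment over all 23684 genes and a threshold of 0.05. CPM are TMM-scaled counts-per-million values over the genes kept, RPKM the same per kilobase of deposited exon length, and log2 CPM have a prior count of 2. The depth limits BATF3 and FOSL1 in COLO320DM most.

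Same-numbered libraries deviated together within each line (correlation of deviations 0.72, 0.44 and 0.31 in SW480, and 0.40, 0.13 and 0.12 in COLO320DM for replicates 1, 2 and 3). Between replicates 2 and 3, other-numbered libraries correlated as highly (0.47 and 0.37 in SW480, 0.16 and 0.15 in COLO320DM), so only replicate 1 stands out, and the labels state no pairing. As each same-number correlation within a line was over 0.1, the number was added as a block within each line (4 residual degrees of freedom). Across lines the same-number correlations were 0.02 to 0.15, and only that of replicate 1 with Entry was over 0.1. A block shared by both lines was run as an alternative for the line comparisons.

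All 10 genes are named throughout; of each context list, up to 3 genes per direction with the smallest p among those that passed are named, and for each of the 10 genes those with a symbol among the 3 most correlated others; 1 gene that the rule names is not reported here. Promoters were RefSeq's. The scripts were tested on simulated data. Alternatives were DESeq2 1.42.0, limma-voom (limma 3.58.1), DESeq2-type size factors, no count filter, HKDC1 and its antisense gene left out, each line fitted alone, the block, leaving out libraries or pairs, and longest-transcript lengths.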

Additional observations from a re-analysis of the deposited data

Results flagged for a closer look

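EGR1, an immediate early gene outside the 10, was the one gene of the context lists whose plasmid effect differed between the lines in a test of the difference itself. With the replicate block the effect in SW480 minus that in COLO320DM was -0.68 on the log2 scale (edgeR quasi-likelihood test, SE 0.13, adjusted p = 0.0279). The change with HKDC1 was -0.34 in SW480 (adjusted p = 0.00279) and 0.35 in COLO320DM (adjusted p = 0.653). Without the block the difference was -0.72 (SE 0.75, adjusted p = 1). EGR1 averaged 360 ± 179 CPM in SW480 with HKDC1 and 461 ± 239 CPM with Entry, and 4.18 ± 2.15 CPM in COLO320DM with HKDC1 and 3.22 ± 0.987 CPM with Entry (SD, n = 3 each). Replicate 1 had the lowest EGR1 in all 4 groups, and its part in the difference was not tested.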

How the results depend on the processing

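Numbers of genes that passed among the 10 stayed the same under DESeq2, limma-voom, other size factors, no count filter, HKDC1 left out or each line alone, where these were run without the replicate block. Without 1 library, the line comparison with Entry gave 8 to 9 and the other comparisons without the block kept their numbers. Over all genes, HKDC1 against Entry called 3 in SW480 and 2 in COLO320DM without the block, 180 and 18 with it, 344 and 32 with the block and no count filter, 98 and 13 by DESeq2 with the block, and 132 and 2 by limma-voom with the block. For HKDC1 against Entry in SW480, 0 passed without the replicate block and 3 with it, also 3 with the block under DESeq2, under limma-voom and with no count filter (chosen after seeing the data), and 0 to 4 without 1 pair. In COLO320DM 1 passed with the block and no count filter, ATF3 at -0.35 (adjusted p = 0.00615, against 0.104 with the filter). Between lines with Entry, 10 passed in place of 9 with the block, JUN being added, whether the block was within each line or shared by both. Replicate number gave 0 to 7 genes in SW480 and 0 to 5 in COLO320DM, the 0 without replicate 1, and 3 in COLO320DM under limma-voom or other size factors. Signs changed for small estimates that passed in no fit. Without 1 library, the HKDC1 change in COLO320DM ran from -0.0957 to 0.200 for FOSB and -0.337 to 0.0745 for MAFF, and in SW480 from -0.161 to 0.147 for JUND, -0.363 to 0.0943 for ATF3 and -0.441 to 0.0789 for FOS. The difference between lines ran from -0.0970 to 0.139 for JUN and -0.0301 to 0.431 for ATF3. With the block and without pair 2, MAFF was at 0.0901 and FOSL1 at 0.0161 in COLO320DM and JUND at -0.0263 in SW480. Without SW480 pair 1, JUND was at -0.0239 and the difference between lines of JUN at -0.00942. Of the log2 values under alternatives, 867 kept sign and side of the threshold, 19 changed sign, 19 passed where the main value did not, and 4 no longer passed, all JUND between lines with Entry. Depth limits BATF3 and FOSL1 in COLO320DM; the causes were not tested.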
